A study of Homo sapiens with 7 samples.

Results

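The 58 genes described here encode the RNA polymerase II (Pol II) transcription machinery. They comprise the 12 Pol II subunits, 15 genes of the promoter-recognition complex TFIID, 9 genes of the other general transcription factors, and 22 Mediator genes. They were chosen by gene name among the 20423 genes of the expression file. The rule uses no measured value, but the choice was made with earlier results of these data known. The study mapped insertions of the piggyBac transposase fused to SP1 and of the wild-type transposase, with an SP1 ChIP-seq peak list and polyA RNA-seq, in HCT116, an established human colon adenocarcinoma cell line. The RNA came from 1 library of HCT116 cells. The growth protocol given for every sample includes G418, the drug that selects cells with an integrated transposon. The labels name no transposase or treatment for the RNA library and do not say whether it was selected. With 1 library there is no replicate error, so every comparison below is a description without a test, and genes with close values cannot be ordered.

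Pol II transcribes the protein-coding genes of the nucleus and cannot find a promoter alone. TFIID, built from the TATA-binding protein TBP and its associated factors (TAFs), binds the core promoter, and TFIIA, TFIIB, TFIIE, TFIIF and TFIIH then assemble with the polymerase. Mediator links this assembly to DNA-bound activators. SP1 is such an activator. It binds the GC box, GGGCGG, and its glutamine-rich domains are known to contact the TFIID subunit TAF4. A Mediator complex called CRSP was purified as a cofactor that SP1 needs in a reconstituted system. Expression was deposited as RPKM, a read count scaled to gene length and library size, which allows for length when genes are compared within the library. Whether this scaling holds equally for short and long genes was not tested.

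Nearly all genes of the machinery were expressed. At 1 RPKM or more stood 57 of the 58 genes (98.3%), against 57.0% of all genes. The exception was TAF9, listed at 0. In the top 25% of all genes, which began at 9.67 RPKM, stood 32 of the 58 (55.2%), against 25.0% of all genes. Taken over the genes at 1 RPKM or more, the top 25% held 20 of the 58. The median of the 58 was 11.8 RPKM, against 1.91 RPKM for all genes and 7.83 RPKM for the 11638 genes at 1 RPKM or more. SP1 itself stood at 48.0 RPKM. Above SP1 lay 8 of the 58 genes (13.8%), against 5.85% of all genes, and 7 of these 8 were Pol II subunits. The exception among them was TAF10.

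The complexes differed in level. Pol II had a median of 60.6 RPKM, the general factors 12.9, Mediator 7.85 and TFIID 7.36. All 12 Pol II subunits lay in the top 25% of all genes, as did 7 of 9 general factor genes, 7 of 22 Mediator genes and 6 of 15 TFIID genes. The log2 ratio of the Pol II median over the Mediator median was 2.95. The lowest Pol II subunit, POLR2B at 13.9 RPKM, was higher than 16 of the 22 Mediator genes.

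**Figure D1:**
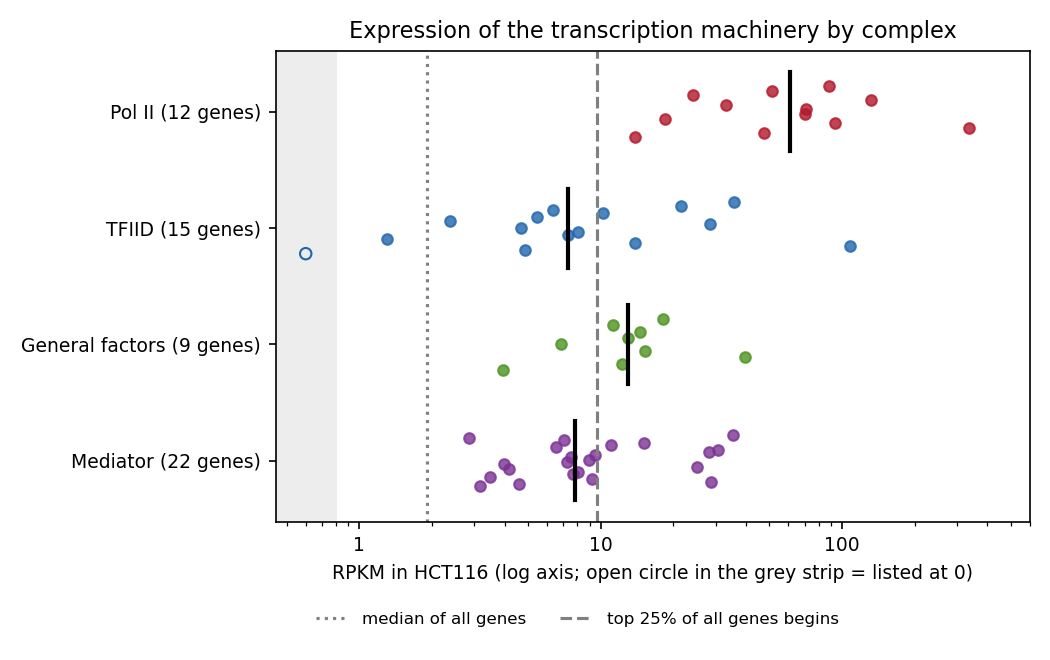
RPKM of each of the 58 genes on a log axis, with 1 point per gene, 1 row per complex and a black bar at each median. The Pol II points all lie right of the dashed line where the top 25% of all genes begins, at 9.67 RPKM. Most TFIID and Mediator points lie left of it.

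Within Pol II the levels spanned 24.2-fold. The top value belonged to POLR2L, a small zinc-binding subunit shared by Pol I, Pol II and Pol III, at 335 RPKM, rank 119 of all genes. POLR2G of the stalk, which binds emerging RNA, followed at 132 RPKM, and its stalk partner POLR2D stood at 33.2. The other shared subunits ranged widely. POLR2H stood at 93.8 RPKM, POLR2E at 70.8, POLR2F at 24.0 and POLR2K at 18.5. The 7 subunits found only in Pol II had a median of 51.2 RPKM, also above the median of each other complex. The assembly platform on which the enzyme is built had matched levels, with POLR2C at 47.5 RPKM and POLR2J at 51.2. POLR2I, which contributes to transcription fidelity in yeast, stood at 88.0 RPKM. Unlike the platform pair, the catalytic pair was uneven. POLR2A, the largest subunit, whose C-terminal repeats are phosphorylated during transcription, stood at 70.0 RPKM, and POLR2B, with which it forms the active centre, at 13.9, a ratio of 5.05. The reads of POLR2J may be shared with its near-identical copies POLR2J2 and POLR2J3, listed at 10.3 and 11.9 RPKM.

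Promoter sequence was available for 46 of the 58 genes, in 58 windows of 300 bases, since 11 genes have more than 1 annotated start. Each window runs from 250 bases before a start to 50 after it in RefSeq's annotation of GRCh38.p14. The 250 bases before the start are printed for POLR2L and POLR2A, the top subunit and the catalytic one, with GGGCGG or its complement CCGCCC in capitals, 5′ to 3′ on the gene's strand. That of POLR2L lies at chr11:842530-842779 (minus strand) and that of POLR2A at chr17:7484116-7484365 (plus strand). Each holds 2 GC boxes.
POLR2L: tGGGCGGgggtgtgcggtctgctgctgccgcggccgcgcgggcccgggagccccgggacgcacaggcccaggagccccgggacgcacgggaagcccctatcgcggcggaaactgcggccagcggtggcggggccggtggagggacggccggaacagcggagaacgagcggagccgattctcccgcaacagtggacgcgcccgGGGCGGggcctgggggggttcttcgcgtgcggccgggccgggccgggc
POLR2A: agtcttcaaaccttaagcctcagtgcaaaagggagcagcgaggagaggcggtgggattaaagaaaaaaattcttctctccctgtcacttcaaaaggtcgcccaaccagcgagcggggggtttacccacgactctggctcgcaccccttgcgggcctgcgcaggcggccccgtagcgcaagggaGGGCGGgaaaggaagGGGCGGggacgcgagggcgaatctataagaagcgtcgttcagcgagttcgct
The GC content of these 250 bases was 79.2% for POLR2L and 59.6% for POLR2A. In the POLR2A sequence the boxes lie close together towards the start, and in that of POLR2L they lie far apart.

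TFIID held some of the highest and lowest values of the 58 genes. TAF10, a histone-fold TAF that TFIID shares with the coactivator SAGA, stood at 108 RPKM, the third-ranking value of the 58. TAF6 followed at 35.7 RPKM, TAF12, also shared with SAGA, at 28.3, and TAF7, which binds TAF1, at 21.5. TBP itself stood at 13.9 RPKM. The other TAFs were lower. TAF11 stood at 10.2 RPKM, TAF2, which contacts initiator sequences, at 8.03, TAF13 at 7.36, TAF4 at 6.37, TAF4B at 5.44, TAF1, the large scaffold subunit, at 4.86, TAF8 at 4.66 and TAF3, which reads trimethylated histone H3 at promoters, at 2.37. TAF5, the WD-repeat subunit around which the core of TFIID is built, was the lowest gene above 0, at 1.30 RPKM. Apart from TAF9, the values of TFIID spanned 82.9-fold.

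TAF9, the histone-fold partner of TAF6, was listed at 0. This value alone does not show whether the gene was silent, which was not tested. Of all genes 16.6% were listed at 0, among them YWHAZ, which most cells express. In RefSeq's annotation of GRCh38.p14 TAF9 overlaps AK6, a gene the expression file does not list, and RAD17, also listed at 0. The TAF9 paralog TAF9B stood at 2.42 RPKM. Whether the reads of this locus were lost in quantification was not tested.

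TAF4, the TFIID subunit that SP1 is known to contact, had one of the promoters richest in GC boxes, with 7 before the start at chr20:62065882-62066131 (minus strand). Overlapping matches count separately. The GC content of these 250 bases was 86.0%. The promoter of TAF12, the partner of TAF4, held none, but 2 copies of CCGGAAG, the core bound by ETS family factors such as GABPA. It lies at chr1:28643068-28643317 (minus strand). Capitals mark GGGCGG or CCGCCC in the TAF4 sequence and CCGGAAG or CTTCCGG in the TAF12 sequence.
TAF4: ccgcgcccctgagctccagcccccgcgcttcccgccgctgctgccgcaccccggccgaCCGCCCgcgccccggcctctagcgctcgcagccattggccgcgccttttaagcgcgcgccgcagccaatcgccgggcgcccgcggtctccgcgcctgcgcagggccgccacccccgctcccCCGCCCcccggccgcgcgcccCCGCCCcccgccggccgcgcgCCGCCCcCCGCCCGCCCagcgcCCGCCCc
TAF12: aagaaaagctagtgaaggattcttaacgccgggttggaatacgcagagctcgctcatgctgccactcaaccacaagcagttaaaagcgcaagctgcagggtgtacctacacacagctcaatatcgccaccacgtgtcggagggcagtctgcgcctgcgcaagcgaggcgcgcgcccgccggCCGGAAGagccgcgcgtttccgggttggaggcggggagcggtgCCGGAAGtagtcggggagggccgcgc
TAF4, with 7 GC boxes, stood at 6.37 RPKM and TAF12, with none, at 28.3 RPKM. These promoters were chosen after the promoters had been seen, and the wider set does not share their order. Genes with no GC box had a median of 10.6 RPKM, those with 1 had 11.7 and those with 2 or more had 14.2.

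The general factors covered a narrower range, from 3.95 to 39.7 RPKM. TFIIF, which escorts Pol II to the promoter, was the highest, with GTF2F1 at 39.7 RPKM and GTF2F2 at 18.1. The subunits of TFIIA, which stabilises TBP on DNA, were close together, with GTF2A1 at 14.6 RPKM and GTF2A2 at 11.3. GTF2B, the single-chain factor TFIIB that bridges TBP and the polymerase, stood at 12.3. TFIIE, which brings in TFIIH, was uneven, with GTF2E1 at 3.95 RPKM and GTF2E2 at 12.9. Of TFIIH, which opens the DNA and phosphorylates the C-terminal repeats of POLR2A, GTF2H1 stood at 6.86 RPKM and GTF2H3 at 15.3.

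The 8 TFIIH genes outside the 58 gave a median of 20.3 RPKM, and 6 of them lay in the top 25% of all genes. The helicases ERCC2 and ERCC3 stood at 25.2 and 20.1 RPKM. The kinase CDK7, its cyclin CCNH and the assembly factor MNAT1 stood at 21.1, 20.5 and 11.3 RPKM. GTF2H4 stood at 24.3 RPKM and the small subunit GTF2H5 at 1.44. GTF2H2, which has near-identical copies in the genome, was listed at 4.52e-10 RPKM, a value that no whole number of reads would give.

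Mediator spanned 12.4-fold, less than Pol II or TFIID, and its modules differed in level. All 22 genes lay between 2.86 and 35.5 RPKM. The modules hold only these 22 genes. The 8 Mediator genes outside the 58, at 7.14 to 29.3 RPKM, were not placed in modules. The tail, where many activators dock, had a median of 28.2 RPKM over 5 genes, against 9.23 for the kinase module, 7.68 for the backbone gene MED14, 7.04 for the middle and 6.51 for the head. In the tail MED16 stood at 35.5 RPKM, MED15 at 30.5, MED24 at 28.2 and MED27 at 15.1. MED23 was the exception among the tail genes, at 3.16 RPKM.

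The kinase module, which binds the rest of Mediator reversibly, had the closest values of any module with more than 2 genes, within 1.52-fold. Cyclin C (CCNC) stood at 11.1 RPKM, MED12 at 9.49, the kinase CDK8 at 8.96 and MED13 at 7.28. Among the genes of the 58 placed in the head, which contacts the polymerase, MED8 stood apart at 28.7 RPKM. The other head genes of the 58 were MED18 at 8.02 RPKM, MED20 at 6.51, MED6 at 4.58 and MED17 at 4.18. In the middle MED10 stood apart in the same way at 25.0 RPKM, followed by MED1, the subunit that nuclear receptors bind, at 9.21. MED21 stood at 7.51 RPKM, MED4 at 7.04, MED26, which recruits elongation factors, at 3.97, MED7 at 3.49 and MED31 at 2.86.

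The Mediator genes whose products were purified in CRSP were not the higher ones. The 8 CRSP genes, MED1, MED7, MED14, MED17, MED23, MED24, MED26 and MED27, had a median of 5.93 RPKM, against 8.49 for the other 14. In the top 25% of all genes were 2 of the 8, MED24 and MED27, against 5 of the 14. The promoters of the CRSP genes MED26 and MED17, chosen after the promoters had been seen, differed as those of TAF4 and TAF12 did. That of MED26, at chr19:16628205-16628454 (minus strand), held 7 GC boxes, and that of MED17, at chr11:93784032-93784281 (plus strand), held none and 2 copies of CCGGAAG. MED26 stood apart among the CRSP genes with a promoter entry. MED7 and MED23 held at most 1 GC box in a window, and MED1, MED24 and MED27 held none. Capitals mark GGGCGG or CCGCCC in the MED26 sequence and CCGGAAG or CTTCCGG in the MED17 sequence.
MED26: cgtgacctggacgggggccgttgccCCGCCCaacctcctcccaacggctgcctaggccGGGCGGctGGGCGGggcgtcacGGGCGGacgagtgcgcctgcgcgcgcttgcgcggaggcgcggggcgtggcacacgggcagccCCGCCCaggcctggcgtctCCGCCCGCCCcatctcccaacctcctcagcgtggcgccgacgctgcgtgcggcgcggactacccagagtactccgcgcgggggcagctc
MED17: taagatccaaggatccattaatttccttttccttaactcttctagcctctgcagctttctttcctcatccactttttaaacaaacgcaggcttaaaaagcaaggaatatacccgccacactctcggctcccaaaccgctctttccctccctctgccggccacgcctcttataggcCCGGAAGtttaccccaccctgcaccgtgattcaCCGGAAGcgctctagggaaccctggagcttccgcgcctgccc
The levels of these genes were close, at 3.97 RPKM for MED26 and 4.18 RPKM for MED17. The 8 Mediator genes outside the 58 were all expressed, from MED9 at 7.14 RPKM to MED30 at 29.3. Their median was 18.8 RPKM and 6 of the 8 lay in the top 25% of all genes, against 7.85 RPKM and 7 of 22 for the Mediator genes among the 58. Over all 30 the median was 9.08 RPKM, with 13 in the top 25%.

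**Figure D2:**
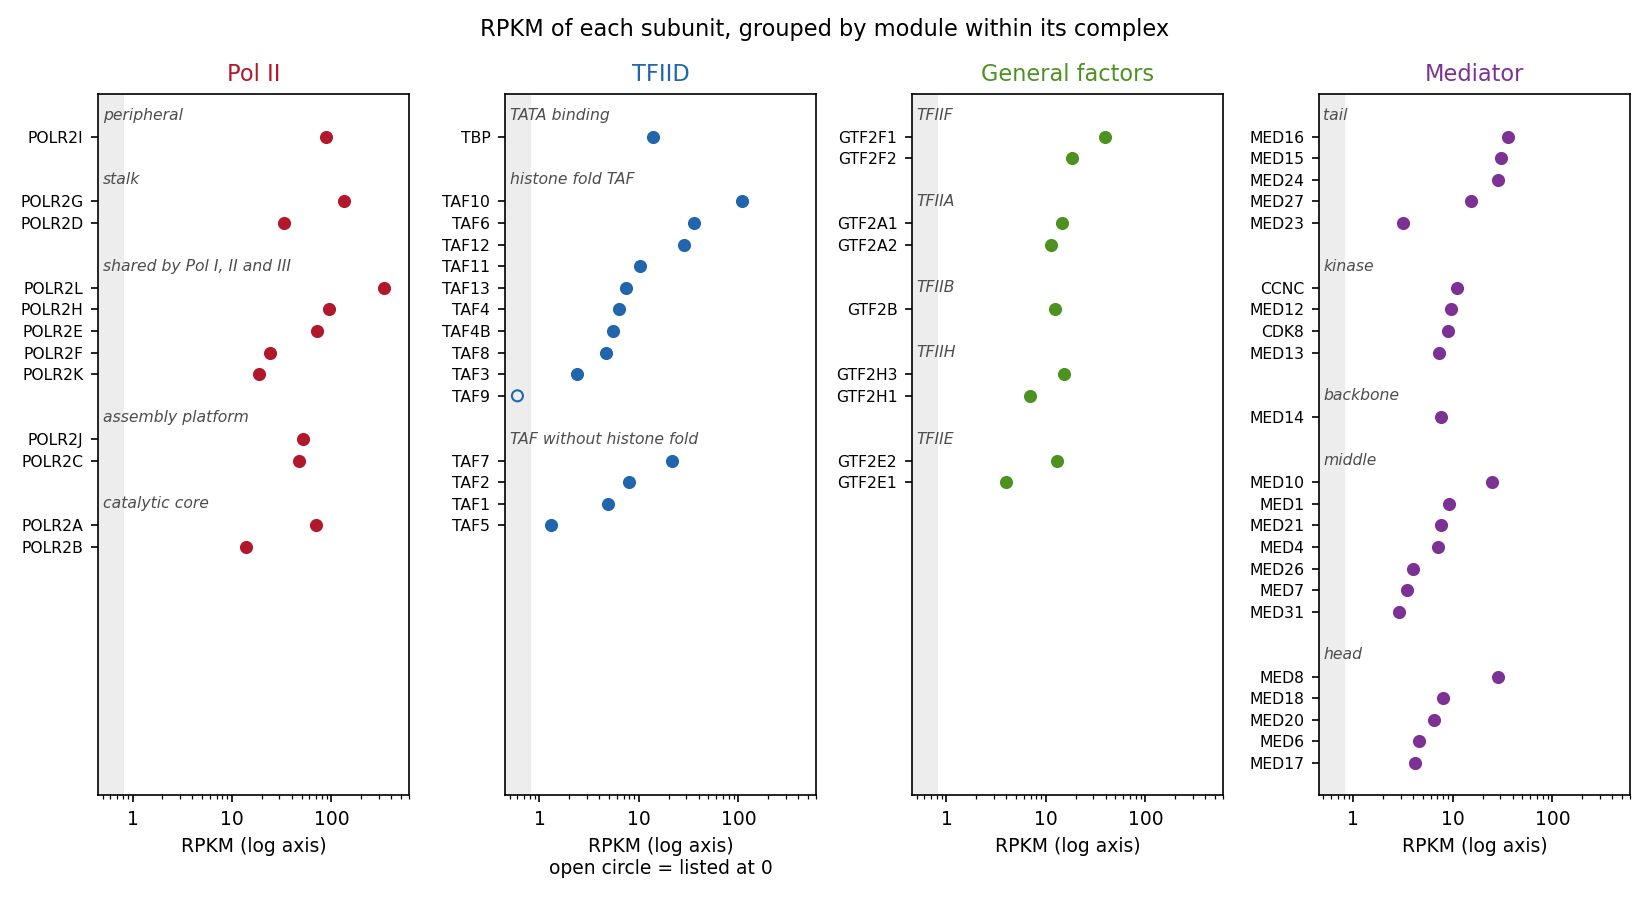
RPKM of every gene on a log axis, 1 panel per complex, grouped by module with the module of the highest median at the top. In the Mediator panel 4 of the 5 tail genes lie at 15.1 RPKM or more, as do MED10 of the middle and MED8 of the head. The open circle in the grey strip is TAF9, listed at 0.

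Subunits that bind each other directly were often unequal in level. Of 17 such pairs 16 gave a ratio, and TAF6 with TAF9 gave none because TAF9 was listed at 0. The partners lay within 1.5-fold of each other in 6 of the 16 pairs. The closest were POLR2C over POLR2J at 0.928, MED18 over MED20 at 1.23 and CDK8 over CCNC at 0.808. TFIIA (GTF2A1 over GTF2A2) gave 1.29, MED12 over MED13 gave 1.30 and TAF11 over TAF13 gave 1.38.

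More than 5-fold apart were 4 pairs. TAF10 pairs with TAF8 or TAF3 in TFIID, and the ratios were 0.0431 for TAF8 over TAF10 and 0.0219 for TAF3 over TAF10. TAF4B over TAF12 gave 0.192 and POLR2A over POLR2B gave 5.05. Just under that gap, TAF4 over TAF12 gave 0.225 and TAF1 over TAF7 gave 0.225. The remaining ratios were 0.251 for POLR2D over POLR2G, 0.305 for GTF2E1 over GTF2E2, 0.465 for MED7 over MED21 and 2.19 for GTF2F1 over GTF2F2. TAF10 and TAF12, which SAGA also uses, were the higher subunit in each of their pairs. TAF9, which SAGA uses as well, was the partner listed at 0. Pairs that share TAF10 or TAF12 are not separate instances. Whether use by SAGA bears on these levels was not tested.

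**Figure D3:**
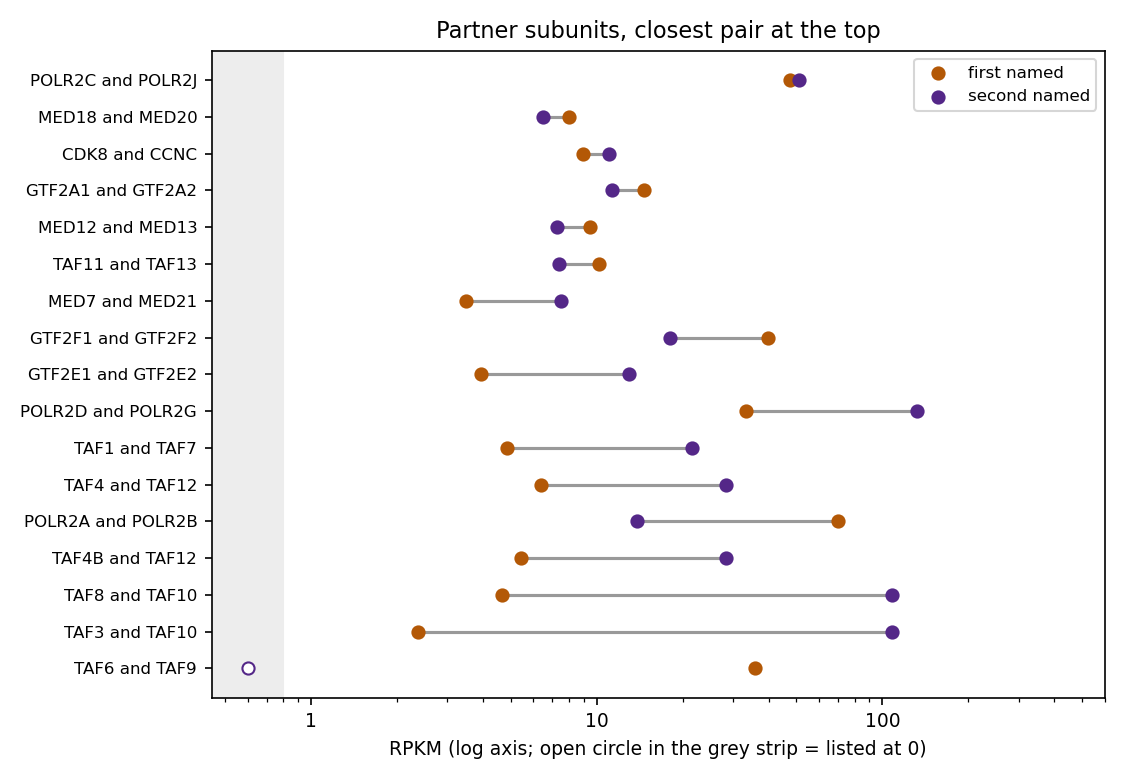
RPKM of the partners in 17 pairs of directly binding subunits on a log axis, with the first-named gene in orange, the second-named in purple, and a line between them. Pairs run from POLR2C and POLR2J, which almost coincide, to TAF3 and TAF10, and TAF9 is the open circle listed at 0.

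Paralogs of these genes, several of which are known from germ cells, were mostly lower than the genes themselves. Of 11 paralogs outside the 58 genes 8 gave a ratio, and 7 of these were below their counterpart among the 58, the exception being MED13L. The 11 leave out the SAGA-type paralogs TAF5L and TAF6L, given below. TAF9B, GTF2A1L and MED12L gave none, since either they or their counterpart were listed at 0. Of the 11, 7 reached 1 RPKM, against 57.0% of all genes, and 3 lay in the top 25% of all genes. Both counts are near the shares of all genes. GTF2A1L and MED12L were listed at 0, TBPL2 stood at 0.0662 RPKM and TAF7L at 0.113. TAF1L stood at 1.62 RPKM against 4.86 for TAF1, whose reads it may share because it is a retrocopy. TBPL1 stood at 7.51 RPKM, against 13.9 for TBP. CDK8 at 8.96 RPKM was 3.10 times its paralog CDK19 at 2.89. For the kinase module subunit MED13 the order was the other way round, at 7.28 RPKM against 29.5 for MED13L, a ratio of 0.247. TAF4 and TAF4B were nearly level, at a ratio of 1.17. Genes of the SAGA-type paralogs also differed in direction, with TAF6 at 4.27 times TAF6L and TAF5 at 0.140 times TAF5L, which stood at 9.30 RPKM.

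The high level of Pol II was not found in the specific subunits of the other polymerases. The 6 genes specific to Pol I, which transcribes ribosomal RNA, had a median of 8.58 RPKM, from CD3EAP at 2.72 to ZNRD1 at 30.8. The 11 specific to Pol III, which transcribes transfer RNA, had a median of 9.53 RPKM, from POLR3B at 2.05 to POLR3E at 28.1. Against these stood 51.2 RPKM for the 7 subunits found only in Pol II. The 19 elongation factor genes had a median of 21.6 RPKM, from CDC73 at 3.68 to TCEB2, which encodes elongin B, a protein that ubiquitin ligases also use, at 271. The 9 TBP-associated and SAGA-type factors outside TFIID had a median of 8.36 RPKM, from TAF1A at 1.99 to TAF1C at 35.0. All genes of these 4 lists were at 1 RPKM or more.

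**Figure D4:**
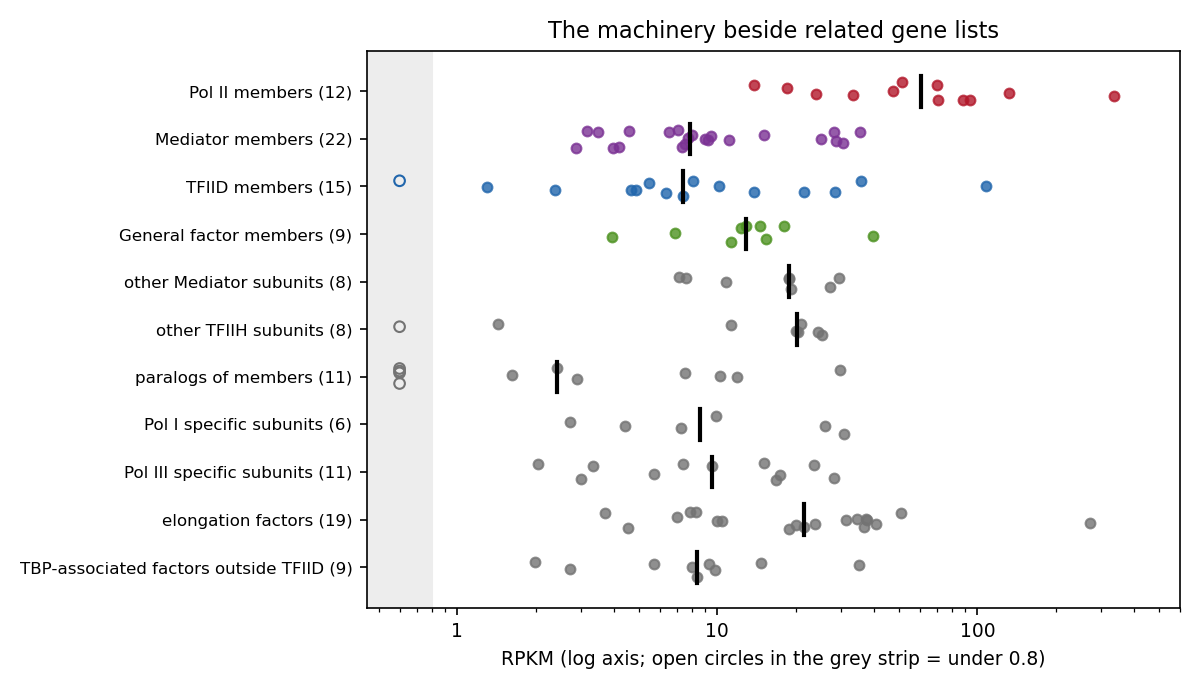
RPKM of the 4 complexes (coloured) and of 7 related gene lists (grey) on a log axis, with 1 point per gene and a black bar at each median. The Pol II median of 60.6 RPKM lies right of the medians of all other rows. TAF9, 4 paralogs and GTF2H2 lie in the grey strip of values under 0.8 RPKM.

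GC boxes were less common in the promoters of these genes than in those of all expressed genes, and more common than in all promoters. GGGCGG on either strand occurred in 33 of the 58 windows (56.9%), against 68.3% of 11554 windows of genes at 1 RPKM or more and 45.0% of all 35116 windows. By gene, 28 of 46 had at least 1 such window, 6 of 8 for Pol II, 9 of 13 for TFIID, 3 of 8 for the general factors and 10 of 17 for Mediator. The 28 of 46 are 60.9%, against 79.8% of 7879 genes at 1 RPKM or more and 48.3% of all 27305 genes with a promoter entry. The shares by gene also depend on the windows per gene. There were 58 windows for 46 genes here, and 11554 for the 7879 expressed genes. TATAAA, the letters of the TATA box that TBP binds, occurred in 4 windows (6.90%), against 5.89% of windows of expressed genes and 11.5% of all windows. These windows belonged to GTF2B, MED7, MED16 and TAF4B. CCAAT, bound by NF-Y, occurred in 14 windows (24.1%), against 34.4% of windows of expressed genes and 34.6% of all.

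Genes with few and with many GC boxes overlapped widely in level. The 18 genes with none had a median of 10.6 RPKM and ranged from 3.95 to 47.5. The 12 with 1 had a median of 11.7 RPKM and ranged from 1.30 to 70.8. The 16 with 2 or more had a median of 14.2 RPKM and ranged from TAF9, listed at 0, to POLR2L at 335. A match of letters is not a bound site, and the SP1 peaks were not joined to these genes, because gene positions of the peaks' build, hg18, were not used here.

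The library carried the marks of an epithelial line. KRT19, KRT8, KRT18 and EPCAM stood at 543, 378, 268 and 79.5 RPKM and CDH1 at 17.0. CEACAM5 and VIL1, intestinal markers chosen in the same colon epithelial list, went the other way, at 0.0266 and 0.0313 RPKM. The 9 markers of leukocytes, fibroblasts and endothelium were at or under 0.146 RPKM except COL1A1, at 14.5.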

How the data were processed

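The RNA-seq of HCT116 cells gave 1 value per gene. The authors deposited these values as RPKM per RefSeq gene of hg18, from reads aligned with TopHat and quantified with Cufflinks, per the deposited readme, and the submitters' processing notes name Cufflinks 1.1.0. No source used here gives the library's depth, and values as low as 4.52e-10 RPKM show that they are model estimates and not multiples of whole reads. No counts could be recovered, so no interval was computed.

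Values were used as deposited, with Python 3.11.15 and pandas 2.3.3. Each complex and list was summarised by its median and its counts at or above 1 RPKM and in the top 25% of all genes. No test was possible with 1 library, and none was made. Ratios were taken only where each value exceeded 0.001 RPKM. Summaries and motif counts were tested on simulated data. Motifs were counted on both strands, overlaps included, in RefSeq promoters of GRCh38.p14 matched by symbol. TATAAA was most frequent from 30 bases before the start for genes of either strand, so sequences read in the gene's direction. The genes, lists, pairs and alternatives were chosen with earlier results of these data known. In full were named the highest and lowest gene of each complex and list, each pair, and every gene under 1 RPKM, and all 58 genes are given with their values. CCGGAAG and the promoters printed were chosen after the promoters had been seen. The insertion files and SP1 peaks were not analysed here.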

Additional observations from a re-analysis of the deposited data

How the results depend on the processing

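Of 38 other ways to summarise the complexes, counts and motifs, 37 gave values within 1.5 times of those reported. The exception was the count of genes in the top 25%, 32 of 58 when it was taken over all genes, which was 20 when it was taken over genes at or above 1 RPKM, and 28 over genes above 0. The alternative leaves fewer and higher genes to compare with. Some of the 38 could change nothing, since Pol II, the general factors and Mediator held no gene under 1 RPKM to leave out. The Pol II median lay between 51.2 and 70.0 RPKM in all alternatives run for it, and the log2 ratio of Pol II over Mediator between 2.60 and 3.13. With 1 RPKM added to each gene, which cannot reverse a ratio, all 16 log2 pair ratios stayed within 1.5 times of those reported. No paired analysis was possible because the RNA data are 1 library. No replicate could be left out, and the depth of the library is unknown, so low values such as that of TAF5 cannot be given an error.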

Other observations

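CCGGAAG, the ETS core, occurred in 21 of the 58 promoter windows of the machinery (36.2%), against 16.9% of windows of genes at 1 RPKM or more and 10.3% of all windows. It was searched after these promoters had been seen, so the share is a description. By gene it occurred in 18 of 46 (39.1%), against 22.5% of genes at 1 RPKM or more and 12.2% of all genes with a promoter entry. Among the 18 were 5 of the 8 general factor genes, 5 of 13 TFIID genes, 5 of 17 Mediator genes and 3 of 8 Pol II genes. Those 18 genes had a median of 9.66 RPKM, against 13.1 RPKM for the 28 without it. With the 50 bases after the start left out, 17 of the 46 genes held it.

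Of all genes 16.6% were listed at 0, and TAF9 was not alone at 0 in its neighbourhood. In RefSeq's order on chromosome 5, RAD17 and MARVELD2 follow TAF9 among the genes the expression file lists, and these 3 genes were all listed at 0. The next gene before them, CCDC125, stood at 1.5 RPKM and the next after them, OCLN, at 1.59 RPKM. CDK7, the kinase of TFIIH and the gene before CCDC125, stood at 21.1 RPKM. Why the 3 neighbouring genes were listed at 0 was not tested.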
